A study of Mus musculus with 12 samples.

Results

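Thymocytes that lack both Zfp36l1 and Zfp36l2 were compared with control thymocytes that had passed beta selection, across 13944 genes. The comparison used 8 of the 12 libraries of the study, chosen by their labels alone: 4 of DN3 cells from double conditional knockout mice (DCKO below) and 4 of DN3b cells from control mice. DCKO mice carried Zfp36l1 fl/fl and Zfp36l2 fl/fl alleles with CD2cre, a Cre recombinase driven by the CD2 gene's regulatory sequence, which acts in lymphocyte precursors. Control mice carried the same floxed alleles without Cre. All mice were C57BL/6, all cells were sorted from the thymus by flow cytometry, and each library is a biological replicate. The age of the mice and the number of mice behind a library are not given in the labels used here. The study's design text calls the DCKO cells DN3-like, and no split into DN3a and DN3b is given for them. The remaining 4 libraries, of control DN3a cells, share the controls' genotype and are set beside the others as the stage before beta selection.

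Double-negative (DN) thymocytes carry neither CD4 nor CD8, and at the DN3 stage they rearrange the T cell receptor beta gene with the RAG1 and RAG2 recombinase. A cell whose beta chain is functional assembles the pre-T cell receptor (pre-TCR) with the invariant pTalpha chain, signals through CD3, LCK and ZAP70, and passes from the resting DN3a state to the cycling DN3b state; this checkpoint is beta selection. ZFP36L1 and ZFP36L2 are zinc finger proteins that bind AU-rich elements in the 3′ untranslated region (3′ UTR) of messenger RNAs and recruit the deadenylation machinery, which shortens the life of the message. Their core recognition word is UAUUUAU, written TATTTAT in DNA letters.

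The word was found in the annotated 3′ UTR of many of the transcripts that were higher in DCKO cells. The 9 stretches below, each 30 bases long and read 5′ to 3′ on the strand of the gene, show the first TATTTAT of 9 such genes in capitals, with the GRCm38 position (GENCODE M21 annotation). They are shown because their genes recur in the results: cell cycle activators (Ccne2, E2f2), survival kinases (Pim1, Pim3), regulators of growth and signalling (Btg3, Dusp1), a cholesterol synthesis gene (Hsd17b7) and 2 of the largest rises (Mllt11, Rag1).
Ccne2, chr4:11204116-11204145, plus strand: tcctagaaattTATTTATttaaacttgctg
E2f2, chr4:136193345-136193374, plus strand: taacgcctttgTATTTATttctagttcaga
Pim1, chr17:29495685-29495714, plus strand: aagttttaatgTATTTATttatttatttat
Pim3, chr15:88865221-88865250, plus strand: ccacggtctctTATTTATggtgtgatcacc
Btg3, chr16:78360040-78360069, minus strand: ttggacttgagTATTTATatattgtgcatt
Dusp1, chr17:26506158-26506187, minus strand: gagctggtcctTATTTATttaacacccccc
Hsd17b7, chr1:169950614-169950643, minus strand: ttcttgactttTATTTATtgtacaggatct
Mllt11, chr3:95220007-95220036, minus strand: atgtacgtactTATTTATctatctatattt
Rag1, chr2:101640477-101640506, minus strand: tgtacattgttTATTTATattttattattt

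The Mllt11 3′ UTR held 6 copies of the word in 1050 bases, that of Hsd17b7 5 in 3498 bases and that of Pim1 4 in 1365 bases, where the copies overlap in the printed run. Dusp1 held 3, Pim3 and Btg3 2 each, and Ccne2, E2f2 and Rag1 1 each. No TATTTAT was found in the annotated 3′ UTR of Cdkn1a. A match describes the letters of the reference and is not a measured binding site.

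The 8 libraries held 30401159 to 41664096 counts. Levels are given as CPM, counts scaled to a common library size after TMM correction. DN3b library 1 lay nearest to DN3a on the first principal component (8.02, against -62.5 to -12.9 for the other DN3b libraries, -54.7 to -35.9 for DCKO and 53 to 88.0 for DN3a), and its summed G2 and M phase genes were the lowest of the 4. Calls that turn on it are given beside the genes they concern. DCKO library 1 had 9.02% of its counts on the single feature ENSMUSG00000045999, while DCKO library 2 was alone in holding many counts of Lars2 (0.569%) and Gm42418 (1.14%). In bulk RNA, fewer cells with a transcript and less of it per cell cannot be told apart.

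The deleted genes were checked first. Zfp36l2 (ENSMUSG00000045817, chr17:84183931-84187947) stood at 287, 319.5, 382 and 467 CPM in the 4 DN3b libraries and at 45.4, 49.3, 87.9 and 72.9 in DCKO. Zfp36l1 (ENSMUSG00000021127, chr12:80107754-80113013) stood at 23.3, 12.1, 12.1 and 9.63 CPM and at 1.65, 1.64, 2.25 and 3.8. Both were lower in every DCKO library than in any control library, Zfp36l2 by 5.7-fold (log2 fold change -2.51, SE 0.26, adjusted p 5.06e-05) and Zfp36l1 by 6.12-fold (log2 fold change -2.61, SE 0.33, adjusted p 0.000212). The third family member, Zfp36, was near 2.03 ± 0.2 CPM (SD, n = 4) in DN3b and 1.98 ± 0.317 in DCKO (adjusted p 0.947). Transcripts expressed by DN3 cells were present in all 8 libraries. Il2ra, the CD25 chain, was at 92 to 189 CPM in DN3b and 115 to 299 in DCKO. Ptcra, which encodes pTalpha, was at 37.8 to 129 and 70.8 to 132 (adjusted p 0.3, and called at 1.28 with 0.0153 without DN3b library 1). Thy1 was at 617 to 787 and 439 to 663. Cd4 did not exceed 2.34 CPM in any of the 8. Cd44, likewise a gene that is low at this stage, was higher in DCKO than in DN3b (log2 fold change 2.17, adjusted p 0.000565).

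**Figure D1:**
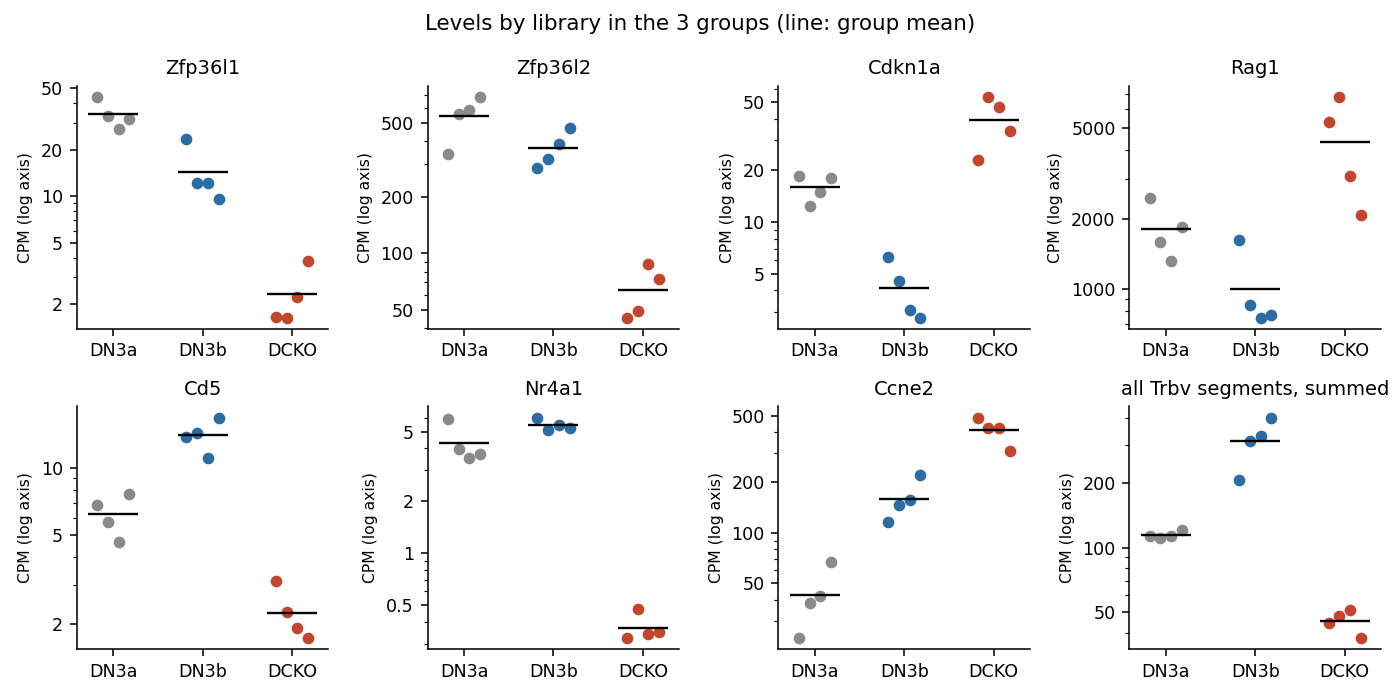
Level of 7 genes and of all T cell receptor beta V segments summed, in CPM on a log axis, in the 4 libraries of DN3a, DN3b and DCKO (points) with the group mean (line). Cdkn1a, Rag1 and Ccne2 lie higher in all 4 DCKO libraries than in any DN3b library, while Zfp36l1, Zfp36l2, Cd5, Nr4a1 and the summed V segments lie lower.

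Of the 13944 genes tested, 2635 differed between DCKO and DN3b at an adjusted p under 0.05 (18.9%), 1438 higher in DCKO (10.3% of genes tested) and 1197 lower (8.58%). Changes of at least 2-fold numbered 810 (5.81%), 315 higher and 495 lower, so the larger changes lay more often on the lower side. The libraries of the 2 groups did not overlap in 2908 genes (20.9%), 2215 of which were among those called. Upper quartile scaling moved the balance to 1051 higher and 1644 lower, with the median of all genes at -0.10 instead of -0.02 on the log2 scale. The authors' deposited table called 3040 genes in the same comparison, and 2538 of the genes called here were in it, all in the same direction. Leaving out DCKO libraries 1 and 2 together left 950 calls, leaving out DCKO library 2 alone 1654, and leaving out DN3b library 3 alone 1601.

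**Figure D2:**
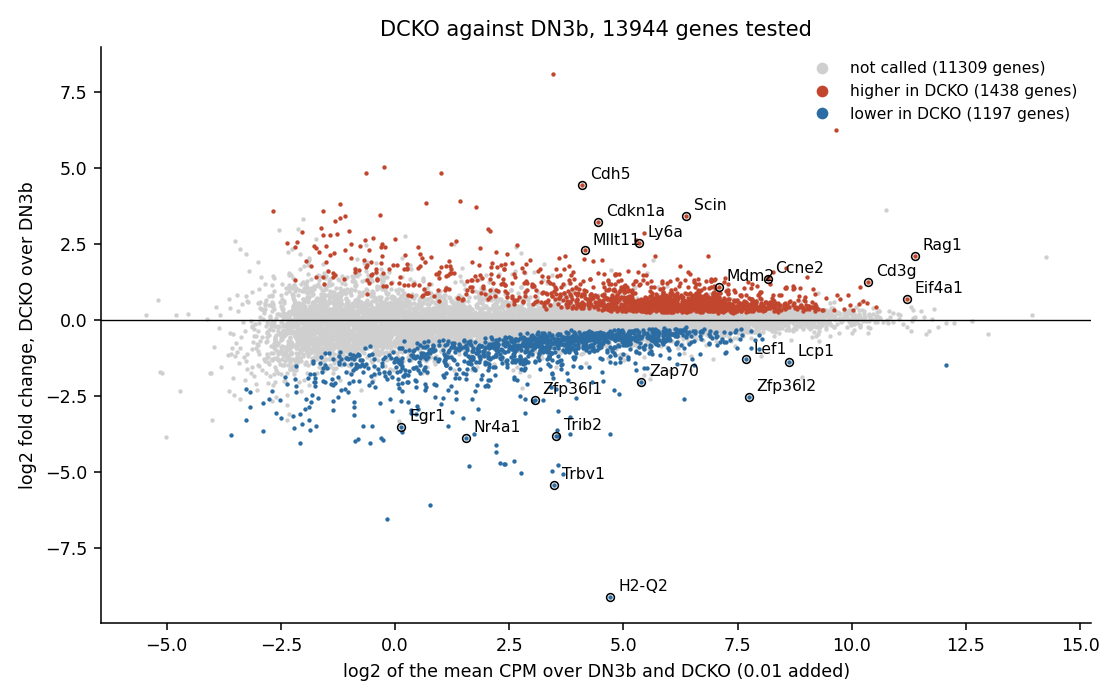
Log2 fold change of DCKO over DN3b against the log2 mean CPM of the 2 groups, 1 point a gene, with 1438 genes higher in DCKO in red, 1197 lower in blue and the others in grey. The named rises Rag1, Cd3g and Eif4a1 are abundant transcripts, while the labelled falls H2-Q2, Trbv1, Trib2 and Nr4a1 lie further left. The labelled rises Cdh5, Cdkn1a and Mllt11 lie further left as well. The labelled falls Lcp1, Lef1 and Zfp36l2 are more abundant than H2-Q2, Trbv1 and Nr4a1.

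Genes with the AU-rich word were more often higher in DCKO than genes without it. Over 11594 tested protein-coding genes with an annotated 3′ UTR, TATTTAT occurred in 28% of all genes, in 722 of the 1364 higher in DCKO (52.9%) and in 188 of the 1079 lower (17.4%). The share called higher was 7.70% of 8343 genes without the word, 18.7% of 2136 genes with 1 copy, 26.2% of 714 with 2 and 33.9% of 401 with 3 or more. The share called lower went the other way, from 10.7% without the word to 4.24% with 3 or more. The median log2 fold change was -0.07 without the word, 0.13 with 1 copy, 0.23 with 2 and 0.30 with 3 or more. Under the 22 alternative analyses, 50.8% to 59.9% of the genes higher and 15% to 18.4% of those lower held the word. These are descriptions over genes, which are not independent of each other, and no test was made.

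The length and base composition of the 3′ UTR moved with the same calls. The median 3′ UTR was 1470 bases in genes higher in DCKO and 906 in genes lower, and the median A and T content 59.6% and 51.1%. Within the shortest 25% of 3′ UTRs (up to 413 bases), 19% of the higher and 2.23% of the lower genes held the word, and within the longest 25% it was 74.7% and 35.8%. Among genes without the word, the share called higher rose with A and T content, from 2.72% in the 25% of genes with the least A and T to 13.3% in the 25% with the most. With the word it was 7.89% and 28.2% in the same classes, so the genes with the word had the larger share at both ends. TTATATT, a word of the same letters, was in 32.0% of the higher genes and 12.2% of the lower. Genes with TTATATT but without TATTTAT were called higher in 11.8% of cases, and genes with TATTTAT but without TTATATT in 19.8%. The part of composition and length in the result was not tested.

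Library by library, the median deviation from the DN3b mean of genes with 3 or more copies, less that of genes with none, was 0.30, 0.42, 0.44 and 0.24 on the log2(CPM + 0.5) scale in DCKO libraries 1 to 4. It was -0.05, 0.02, -0.02 and 0.06 in the DN3b libraries and 0.12, 0.32, 0.19 and 0.26 in the DN3a libraries. DN3a and DCKO both lay above DN3b, and their ranges overlapped. Against DN3a, 30.7% of all genes were called higher in DCKO and 29.5% lower, and the shares called higher differed less by word content: 33.8% without the word and 39.7% with 3 or more. The comparisons share the DCKO or the DN3b libraries, so these values are set side by side and not read as independent.

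**Figure D3:**
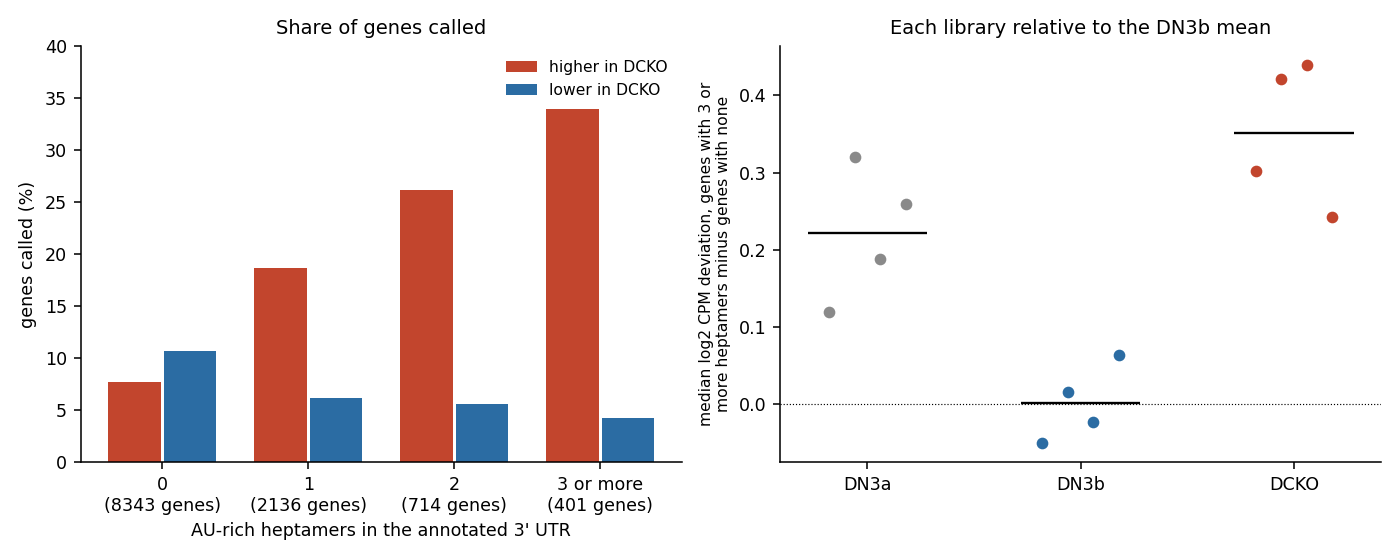
Left, share of genes called higher (red) and lower (blue) in DCKO by the number of AU-rich heptamers in the annotated 3′ UTR; the higher share climbs from 7.70% to 33.9%. Right, for each library, the median log2 CPM deviation from the DN3b mean of genes with 3 or more copies minus that of genes with none (points) and the group mean (line); all DCKO libraries lie above all DN3b libraries, and the DN3a libraries lie between 0.12 and 0.32.

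Transcripts of T cell receptor beta V segments, which reach high levels once a cell has completed V to DJ joining, were much lower in DCKO. All Trbv genes together summed to 206, 313, 332 and 404 CPM in the 4 DN3b libraries and to 44.5, 48.3, 51.5 and 37.9 CPM in DCKO. The DCKO sums lay below every DN3b library and below every DN3a library (111 to 121 CPM). The mean was 314 ± 81.5 CPM (SD, n = 4) in DN3b and 45.5 ± 5.87 in DCKO, 6.89-fold lower (exact permutation test, two-sided, p = 0.0286, the smallest that 4 against 4 can give). Of 23 Trbv genes tested, 21 were lower and 0 higher, with a median log2 fold change of -4.35.

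The V segments were not affected alike. Trbv1 stood at 12.3, 22, 24.5 and 29 CPM in DN3b and 0.403, 0.752, 0.471 and 0.383 in DCKO (log2 fold change -5.42, SE 0.31, adjusted p 9.99e-07). Trbv15 stood at 13.9, 20.3, 22.5 and 27.4 CPM and at 3.14, 3.23, 2.56 and 1.66 (log2 fold change -2.99, SE 0.25, adjusted p 9.51e-06). Trbv13-2 and Trbv12-2 were lower by only 0.87 and 1.09 on the log2 scale, while Trbv12-3 (1.17, adjusted p 0.192) and Trbv6 (0.78, adjusted p 0.322) were not called. Reads of near-identical segments can be split or lost in counting, so single segments are less certain than the sum. The constant genes, which are transcribed before joining is complete, were not called by edgeR: Trbc1 was at 548 to 691 CPM in DN3b and 679 to 846 in DCKO (log2 fold change 0.33, adjusted p 0.0635; higher at 0.0233 with DESeq2 and 0.0412 without DN3b library 1), and Trbc2 at 1043 to 1126 and 865 to 1084.

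Segments of the other receptor loci were lower as well. Of 25 alpha, delta and gamma V genes tested, 17 were lower and 0 higher, with a median of -2.59, and their sum was 217 to 265 CPM in DN3b, 38.4 to 46.4 in DCKO and 403 to 573 in DN3a. Trgv2 held the most counts among them in DN3b, at 126 to 158 CPM in DN3b and 14.1 to 29.4 in DCKO. Tcrg-V4 stood at 50.1, 48.8, 45.1 and 52 CPM in DN3b and 2.9, 3.28, 5.28 and 2.93 in DCKO (log2 fold change -3.75, SE 0.20, adjusted p 9.99e-07). Every DCKO library lay below every control library, DN3a included (101 to 158 CPM). Tcrg-V4 and Trbv1 had the smallest adjusted p of all receptor segments, together with Mllt11 the smallest of all genes. Of the gamma constant genes Tcrg-C2 was lower (-0.94, adjusted p 0.0133, and 0.115 without DCKO libraries 1 and 2), and Tcrg-C1 was not called (adjusted p 0.774).

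Part of the recombination machinery was more abundant. Of 15 V(D)J recombination factors, 4 were higher (Rag1, Rag2, Lig4 and Xrcc4) and 2 lower (Polm and Poll). These shares were 26.7% and 13.3%, against 10.3% and 8.58% of all genes tested. Rag1 stood at 1629, 846, 748 and 765 CPM in DN3b and at 5274, 6799, 3094 and 2091 in DCKO, so the lowest DCKO library exceeded the highest of DN3b (4.33-fold, log2 fold change 2.11, SE 0.37, adjusted p 0.00191). Without DCKO libraries 1 and 2 its log2 fold change was 1.38 (adjusted p 0.0347). DN3a cells had 1316 to 2486 CPM. The DCKO libraries spread over more than the controls, with libraries 1 and 2 highest. Rag2, the partner subunit, rose by 1.28 with overlap (SE 0.27, adjusted p 0.00606, and 0.105 without DCKO libraries 1 and 2).

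Among the factors that join the cut ends, Lig4, the ligase, stood at 50, 61.8, 55 and 61.5 CPM in DN3b and 69.9, 107, 138 and 112 in DCKO (log2 fold change 0.91, SE 0.17, adjusted p 0.00269). Its cofactor Xrcc4 stood at 16.6, 17.8, 13.2 and 14.7 and 31.2, 25.1, 26.1 and 26.5 (log2 fold change 0.80, SE 0.13, adjusted p 0.00115). Neither gene's libraries overlapped between the groups. Polm and Poll, polymerases that fill the ends, were lower: Poll at 6, 6.29, 5.6 and 5.21 CPM against 2.02, 2.45, 0.732 and 0.925 (log2 fold change -1.92, SE 0.46, adjusted p 0.0122) and Polm at 0.905 to 2.89 against 0.261 to 0.605 (log2 fold change -2.07, adjusted p 0.00499). Both are low transcripts, and Poll was at -2.80 without DCKO libraries 1 and 2.

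Most genes of the list of pre-TCR signal reporters were lower. Of 18 tested, 12 were lower (66.7%) and 1, Cd44, was higher (5.56%), against 8.58% and 10.3% of all genes. The median log2 fold change was -2.42, against -0.02 over all genes. Not all of the list rose at beta selection: 8 of the 18 were higher in DN3b than in DN3a and 3 were lower. Of all genes, 27.4% were higher and 25.2% lower in that comparison. The list's sum was 212 to 284 CPM in DN3b, 80.6 to 102 in DCKO and 115 to 140.4 in DN3a. Nr4a1, a nuclear receptor induced early after receptor engagement, stood at 6.02, 5.11, 5.47 and 5.27 CPM in DN3b and at 0.323, 0.473, 0.34 and 0.351 in DCKO (14.5-fold lower, log2 fold change -3.86, SE 0.24, adjusted p 1.6e-06). All DCKO libraries lay below all DN3a libraries too (3.53 to 5.9 CPM).

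Cd5, a surface receptor whose level follows receptor signal strength, stood at 13.8, 14.5, 11.1 and 16.9 CPM in DN3b and 3.1, 2.25, 1.91 and 1.72 in DCKO (6.28-fold lower, log2 fold change -2.65, SE 0.23, adjusted p 1.18e-05). Its relative Cd6 was lower by 3.75 (SE 0.25, adjusted p 3.06e-06), with 20.4 to 35.3 CPM in DN3b and 1.59 to 2.94 in DCKO. Neither overlapped between the groups, and in both the DCKO libraries also lay below the DN3a libraries (4.67 to 7.64 and 8.36 to 12.4 CPM). Egr1, an immediate early transcription factor, was at 2.05, 2.33, 2.15 and 1.53 CPM in DN3b and 0, 0.278, 0.131 and 0.255 in DCKO (log2 fold change -3.52, SE 0.48, adjusted p 0.000392). Its target Id3, an inhibitor of E proteins, was at 21.1, 16.3, 19.5 and 12.5 and 3.87, 3.34, 2.43 and 5.65 (log2 fold change -2.19, SE 0.26, adjusted p 0.000156).

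Further reporters of the same list were lower in every DCKO library. Cd2, an adhesion receptor gene, fell by 4.09 (adjusted p 0.00378), the Ikaros family gene Ikzf3 by 3.19 (adjusted p 0.000466), the pseudokinase gene Trib2 by 3.81 (adjusted p 0.000275) and the costimulatory receptor gene Cd28 by 1.12 (adjusted p 0.000243), all on the log2 scale. Cd28 showed the narrowest difference, 83.2 to 112 CPM in DN3b against 40.1 to 54.2 in DCKO, the latter overlapping the DN3a range of 42.7 to 58.8. Without DN3b library 4 Cd2 was at -3.12, and without DCKO libraries 1 and 2 Cd2 was at -5.39 and Ikzf3 at -4.22. Cd69, Nr4a2, Nr4a3, Tnfrsf9 and Spry1 of the list were not called. Spry1 (0.57) was called higher without DN3b library 1 (0.87, adjusted p 0.0284), and Nr4a3 (-0.59) lower without DCKO library 3 (-1.26, adjusted p 0.035).

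Of 38 proximal kinases and adaptors of the receptor, 8 were lower (21%) and 1, Cbl, higher (2.63%), against 8.58% and 10.3% of all genes. The median was 0.02, and 4 were higher without DN3b library 1. The call of Cbl was lost without DCKO library 2 or 3 or DN3b library 3 or 4 (highest adjusted p 0.0837). Zap70, the kinase that docks on phosphorylated CD3, stood at 63.1, 53, 69.2 and 84.1 CPM in DN3b and 16.9, 17.1, 14.3 and 17.5 in DCKO (log2 fold change -2.03, SE 0.18, adjusted p 1.18e-05), and the DCKO range overlapped that of DN3a (14.6 to 24.8 CPM). Matk, a kinase that restrains SRC family kinases, fell by 2.60 (adjusted p 0.000133) and the SAP adaptor gene Sh2d1a by 1.43 (adjusted p 0.00171). Lck, Lat, Lcp2, Plcg1 and Prkcq, which link the receptor to calcium and protein kinase C, were not called, with log2 fold changes of 0.08, 0.25, 0.25, 0.12 and 0.09. Without DN3b library 1 Lat and Lcp2 were called higher (adjusted p 0.0482 and 0.0191), and Lcp2 also with DESeq2 (0.0205). Of 9 pre-TCR and CD3 subunits, 2 were higher (22.2%) and 1 lower (11.1%), and the lowest log2 fold change of the 9 was -3.69. Among the higher was Cd3g (1062, 750.1, 546 and 728 CPM in DN3b, 1963, 1751, 1970.3 and 1719.5 in DCKO, log2 fold change 1.26, SE 0.17, adjusted p 0.000293), and Cd3e was not called (adjusted p 0.354).

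**Figure D4:**
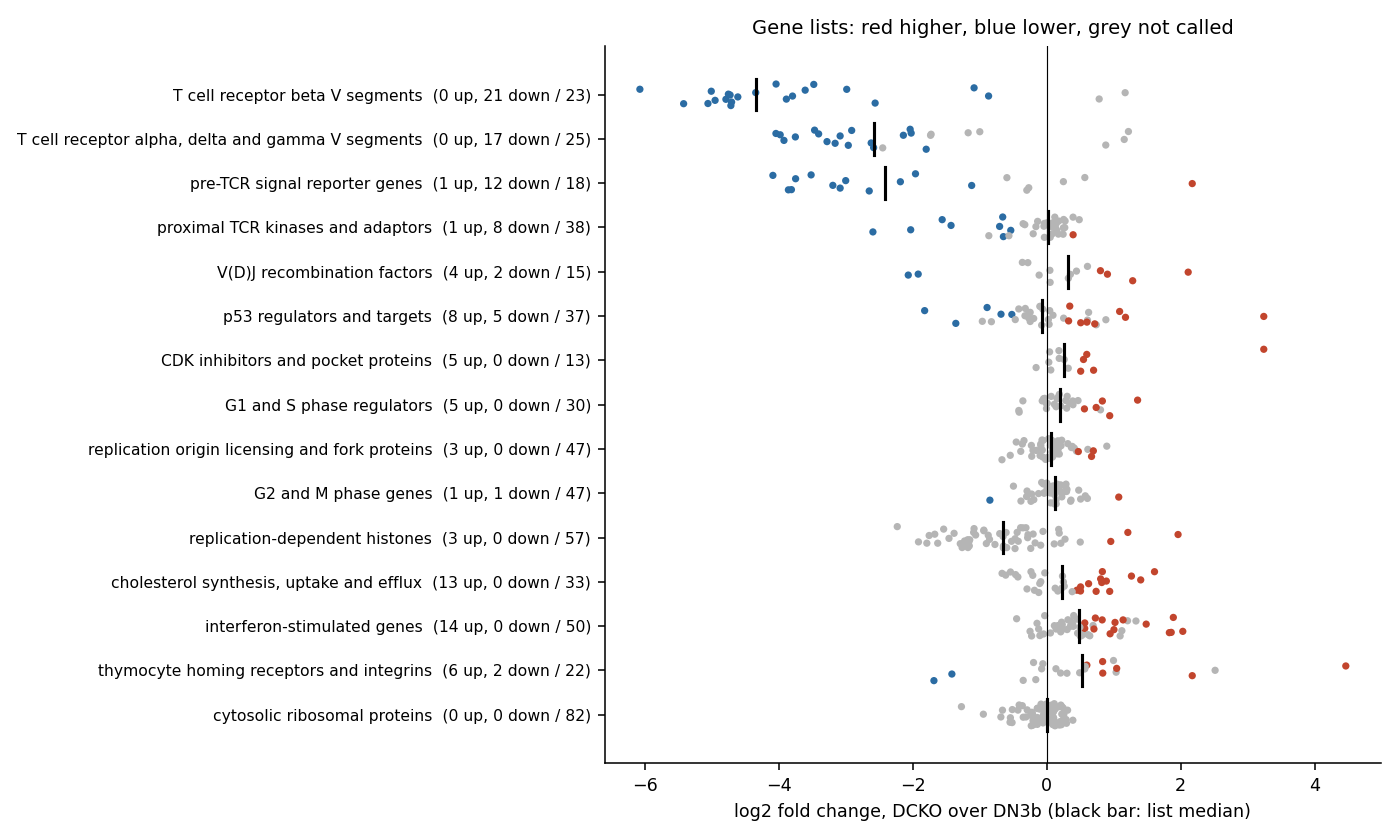
Log2 fold change of DCKO over DN3b for every tested member of 15 gene lists, 1 point a gene, red if higher, blue if lower and grey if not called, with the list median as a black bar and the counts beside the name. Receptor V segments and pre-TCR reporters lie to the left of 0, with medians of -4.35, -2.59 and -2.42, and ribosomal proteins centre on 0.

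Cdkn1a, which encodes the cyclin-dependent kinase inhibitor p21, was the third largest rise among abundant genes, where abundant means an average log2 CPM of 3 or more and only called genes whose groups did not overlap were ranked, without predicted genes. It stood at 6.21, 4.52, 3.08 and 2.77 CPM in the 4 DN3b libraries and at 23.1, 53.8, 46.6 and 33.9 CPM in DCKO, with 18.6, 12.5, 14.9 and 18 in DN3a. Every DCKO library lay above every control library, and DN3b lay below both other groups. The rise over DN3b was 9.46-fold (log2 fold change 3.24, SE 0.31, adjusted p 2.42e-05), and that over DN3a 1.30 on the log2 scale.

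Other inhibitors and pocket proteins moved less. Of 13 tested, Cdkn1a among them, 5 were higher (38.5%) and 0 lower, against 10.3% and 8.58% of all genes, with a median of 0.26. The sums, which include Cdkn1a, were 487 to 655 CPM in DN3b and 713 to 811 in DCKO and did not overlap. The count of higher genes was 3 without DCKO library 1 or 3 or DN3b library 2. Lin52, a subunit of the DREAM repressor, rose by 0.60 (SE 0.11, adjusted p 0.00208), with 17 to 20.4 CPM in DN3b and 25.1 to 29.6 in DCKO. Cdkn2d, which encodes p19INK4D, rose by 0.70 (adjusted p 0.0154, and 0.0542 without DN3b library 2). Cdkn1b, which encodes p27, was at 77.8, 81, 80.5 and 71.6 CPM in DN3b and 86.9, 92.1, 113 and 96.5 in DCKO and missed the threshold (log2 fold change 0.32, adjusted p 0.051; 0.037 without DN3a library 2, 0.0475 without DN3a library 1 and 0.0229 with DESeq2).

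Regulators and targets of the p53 transcription factor, taken as 1 list, did not move in one direction. Of 37 tested, 8 were higher and 5 lower (21.6% and 13.5%), with a median log2 fold change of -0.08. Mdm2, the p53 ubiquitin ligase and itself a target, stood at 86.1, 87, 82.1 and 92 CPM in DN3b and 193, 183, 195 and 167 in DCKO (log2 fold change 1.09, SE 0.08, adjusted p 5.1e-06), without overlap and with DN3a between them (93.3 to 101 CPM). The other targets Phlda3, at 5.31, 4.69, 5.17 and 4.59 CPM against 1.65, 1.78, 1.78 and 2.49 (log2 fold change -1.36, SE 0.19, adjusted p 0.00041), and Ddb2, at 49.5 to 57.6 against 35.8 to 40.1 (-0.52, adjusted p 0.00168), were lower. Bax (-0.32, adjusted p 0.261), Ccng1 (-0.25, adjusted p 0.248) and Trp53 itself (-0.10, adjusted p 0.73) were not called. The higher count was 4 without any one of DCKO libraries 1 to 3 or DN3b libraries 2 and 3, and without DCKO libraries 1 and 2 together 2 were higher and 2 lower.

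DNA damage checkpoint and repair genes were called at less than the background rate, 3 higher and 3 lower of 47 tested, with a median of 0.01. Rad17, which loads the 9-1-1 clamp at damaged DNA, stood at 45.5, 48.5, 44.1 and 52.3 CPM in DN3b and 98.1, 78.4, 79.1 and 69.1 in DCKO (log2 fold change 0.77, SE 0.12, adjusted p 0.000778). Rpa3, a subunit of the single-strand binding complex, stood at 46 to 65.9 and 81.5 to 107 (log2 fold change 0.72, SE 0.13, adjusted p 0.00274). Between DN3a and DN3b, where 27.4% of all genes rose and 25.2% fell, 36 of the same 47 genes were higher in DN3b. With the replicate number as a block, which pairs the control libraries, the shares of all genes were 33.0% and 34.3%, and 38 of the 47 were higher.

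Summed G2, M and replication genes overlapped between DCKO and DN3b, and summed G1 to S regulators were higher in DCKO. Of 47 G2 and M phase genes, 1 was higher (Pbk) and 1 lower (Cdc25b), both of which lost the call without DCKO library 1 (adjusted p 0.0685 and 0.124) and other single libraries, and the list's sum was 5899, 9977, 11059 and 10442 CPM in the DN3b libraries and 9771, 9529.6, 10937 and 10594 in DCKO, against 1096 to 3866 in DN3a. The first of the DN3b values, from library 1, stood apart. Of 47 origin licensing and replication fork genes, 3 were higher and 0 lower (5 higher without DN3b library 4), with sums of 8738 to 13454 CPM in DN3b and 11791 to 12674 in DCKO. The proliferation marker Mki67 was at 688 to 1707 CPM in DN3b and 1074 to 1515 in DCKO (log2 fold change -0.04, adjusted p 0.961).

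For the 30 G1 and S phase regulators, 5 were higher and 0 lower (16.7%, against 10.3% of all genes), and the sums did not overlap: 3676, 4271, 4707 and 4902 CPM in DN3b and 5385, 5172, 5456 and 5427 in DCKO. Ccne2, which encodes cyclin E2, the partner of CDK2 at S phase entry, stood at 117, 146, 156 and 222 CPM in DN3b, 488, 422, 425 and 307 in DCKO and 23.6 to 67.4 in DN3a (log2 fold change 1.36, SE 0.28, adjusted p 0.00479). All DCKO libraries exceeded all DN3b libraries, though without DCKO libraries 1 and 2 the adjusted p was 0.0633. E2f2, an activator E2F, stood at 147, 170.1, 209.8 and 176 CPM and 294, 319, 331 and 404 (log2 fold change 0.94, SE 0.14, adjusted p 0.000628), and the CDK2 phosphatase gene Cdc25a at 123, 143, 155 and 176 and 227, 221, 216 and 221 (log2 fold change 0.56, SE 0.12, adjusted p 0.00568).

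The remaining regulators of that list were closer to control. Ccne1 was at 34.6 to 67.2 CPM in DN3b and 71.8 to 103 in DCKO without overlap, yet was not called by edgeR (adjusted p 0.0782; 0.0376 with DESeq2, 0.0249 with limma-voom and 0.0386 without DN3a library 1). Cdc6 (0.74) and E2f7 (0.83) were called at adjusted p 0.0447 and 0.0462, and both lost the call without any one of DCKO libraries 1 to 3 or DN3b libraries 1 and 2 (for DN3b library 2, 0.102 and 0.114), Cdc6 also without DCKO library 4 or DN3b library 3, E2f7 without DN3b library 4, and both without DN3a library 3. The D cyclins and their kinase were not called: Ccnd2 was at 110.3 to 134 and 83.1 to 144 CPM, Ccnd3 at 182 to 228 and 185 to 311, and Cdk6 at 288 to 361 and 282 to 413. Myc was at 178 to 224 CPM in DN3b and 152 to 208 in DCKO (adjusted p 0.209). The count of 5 higher dropped to 3 without any one of DCKO libraries 1 to 3 or DN3b libraries 1 and 2.

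**Figure D5:**
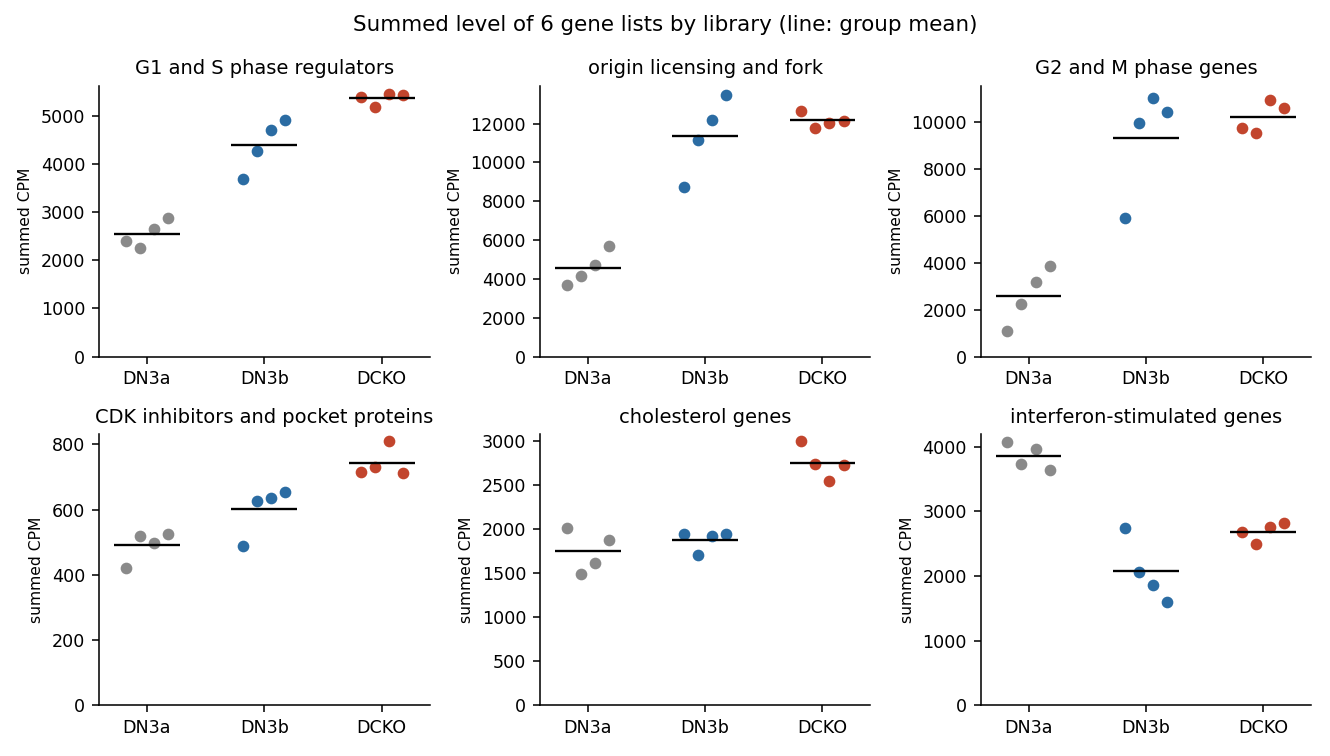
Summed CPM of 6 gene lists in each library (points) with the group mean (line). G1 and S phase regulators, CDK inhibitors and pocket proteins, and cholesterol genes are higher in every DCKO library than in any DN3b library, while the G2 and M phase and origin licensing sums overlap.

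Histone genes did not follow the other S phase genes. Of 57 replication-dependent histone genes tested, 3 were higher and 0 lower, but the median log2 fold change was -0.65, and the sums were 8296, 5729, 6881 and 6126 CPM in DN3b and 4825, 4058, 4811 and 8704 in DCKO. The DCKO libraries spread over a wider range than the DN3b libraries and overlapped them. Without DCKO library 4, 32 of the 57 were lower, and without DN3b library 4, 7 were. The 3 called members, Hist1h1t (1.96), Hist2h2be (0.96) and Hist3h2a (1.21), encode a testis linker histone and core histones of smaller clusters, and Hist3h2a lost its call without any one of DCKO libraries 2 to 4 or DN3b libraries 2 to 4 (highest adjusted p 0.0892, without DN3b library 3). Most replication-dependent histone messages have no poly(A) tail, and the libraries were made from total RNA.

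Of 33 genes of cholesterol supply tested, 13 were higher and 0 lower (39.4%), 20 were not called and 20 had a positive log2 fold change, with a median of 0.24 and sums of 1704 to 1946 CPM in DN3b, 2546 to 3002 in DCKO and 1495 to 2017 in DN3a. Fdps, which makes farnesyl diphosphate, stood at 115, 112, 127 and 145 CPM in DN3b and 361, 284, 256 and 298 in DCKO (log2 fold change 1.27, SE 0.15, adjusted p 0.000155). Every DCKO library exceeded every DN3b and every DN3a library.

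The later enzyme Hsd17b7 rose 3.05-fold (14.2 to 18.8 CPM in DN3b, 47.1 to 58.5 in DCKO, adjusted p 1.49e-05). Hmgcs1, Fdft1 and Insig1 rose by 0.83, 0.81 and 0.82 on the log2 scale. The sterol-sensing transcription factor genes Srebf2 (-0.12, adjusted p 0.666) and Srebf1 (-0.21, adjusted p 0.609) and the efflux pump gene Abca1 (-0.61, adjusted p 0.504) were not called. Hsd17b7 and Insig1 hold TATTTAT in the annotated 3′ UTR (5 and 2 copies). The sterol element TCACNCCAC was found on either strand in the promoter of 1 of 24 list genes with a RefSeq promoter (Hmgcs1), and in 1.44% of all RefSeq promoters of the same length.

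Part of the interferon-stimulated genes was higher in DCKO than in DN3b, while the list's sum stayed below DN3a. Of 50 tested, 14 were higher and 0 lower (28%), with a median of 0.48, and without DN3b library 1 the count was 25. It was 7 without DN3b library 2 or 3, 8 without DCKO library 1 and 9 without DCKO library 3. The sum of the list was 2749.9, 2068, 1866 and 1605 CPM in DN3b and 2686, 2490.0, 2753 and 2827 in DCKO, so that DN3b library 1 lay within the DCKO range, and 3647 to 4068 in DN3a. From DN3a to DN3b, 37 of the 50 were lower in DN3b and 1 higher, or 42 and 2 with the replicate block of the control libraries. Usp18, which dampens interferon receptor signalling, stood at 31.5, 21, 16.1 and 8.17 CPM in DN3b and 64.5, 59.3, 72.4 and 77.4 in DCKO (log2 fold change 1.83, SE 0.31, adjusted p 0.00168). The DN3b and DCKO libraries did not overlap.

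Eif2ak2, which encodes the double-stranded RNA sensor PKR, rose by 0.73 (adjusted p 0.000527), the guanylate-binding protein gene Gbp3 by 1.02 (adjusted p 0.00415) and Isg15, a ubiquitin-like modifier, by 1.0 (adjusted p 0.0213; 0.0643 without DN3b library 2 and 0.0699 without DCKO library 3). Stat2 (0.24, adjusted p 0.181) and Irf7 (-0.05, adjusted p 0.946) were not called. The interferon-stimulated response element was found on either strand in 21 of the 37 list genes with a RefSeq promoter, in 7 of the 9 of them that were higher, and in 3.99% of all RefSeq promoters. The Isg15 promoter is shown as the member with the most matches, from 250 bases before to 50 after the start (RefSeq, GRCm38.p6, chr4:156200769-156201068, minus strand), with its 3 overlapping matches, on the strand opposite to the element's usual spelling, in capitals.
Isg15 promoter: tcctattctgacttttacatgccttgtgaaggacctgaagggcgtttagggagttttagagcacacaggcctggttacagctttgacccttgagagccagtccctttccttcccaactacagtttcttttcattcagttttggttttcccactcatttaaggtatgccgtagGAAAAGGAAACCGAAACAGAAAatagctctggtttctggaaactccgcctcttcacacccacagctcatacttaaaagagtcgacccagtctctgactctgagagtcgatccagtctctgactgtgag
The element was also present in 14 of the 28 list genes that were not called.

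Survival kinases and cytokine pathway genes split. Pim3, a serine kinase that supports growth downstream of cytokines, stood at 22.3, 16.4, 18.4 and 22.6 CPM in DN3b, 64.2, 54.8, 50 and 69 in DCKO and 7.87 to 13.7 in DN3a (log2 fold change 1.58, SE 0.17, adjusted p 8.74e-05). Pim1 stood at 78.2, 52.2, 42.5 and 41.7 and 137, 124, 143 and 134 (log2 fold change 1.33, SE 0.18, adjusted p 0.000327), with DN3a (114 to 146 CPM) overlapping DCKO. Neither overlapped between DN3b and DCKO. Of the 30 genes of the interleukin 7 receptor and JAK-STAT list, 4 were higher and 5 lower. That is 13.3% and 16.7%, against 10.3% and 8.58% of all genes. Among the 4 were Pim1, Pim3 and Socs7 (0.56), and among the 5 were the kinase gene Jak3 (-0.97, adjusted p 0.00326, and 0.0622 without DCKO libraries 1 and 2) and Stat6 (-0.57, adjusted p 0.00129). Il7r was at 69.9 to 85.9 CPM in DN3b and 52.9 to 75.4 in DCKO (adjusted p 0.0799, and 0.0397 without DCKO library 2).

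MAP kinase phosphatases also went both ways. Dusp1 stood at 2.98, 3.73, 3.71 and 3.64 CPM in DN3b and 6.45, 9.66, 8.6 and 8.48 in DCKO (log2 fold change 1.24, SE 0.21, adjusted p 0.00145), while Dusp10, at 57.7, 52.7, 62.6 and 75.8 and 33.2, 31, 32.1 and 40.3, was lower (log2 fold change -0.87, SE 0.14, adjusted p 0.00122). Btg3, an antiproliferative CCR4-NOT partner, rose 2.48-fold (13.1 to 16 CPM in DN3b, 31.6 to 38.1 in DCKO, adjusted p 1.73e-05). The Kruppel-like factor gene Klf6 rose 2.11-fold (34.5 to 40.5 and 66.4 to 86.8 CPM, adjusted p 0.000133). The FOXO target Sesn3 was lower (15.3 to 19.5 and 7.08 to 9.8 CPM, log2 fold change -1.03, SE 0.14, adjusted p 0.000328).

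Other factors of AU-rich message decay were nearly level. Of 49 tested, 5 were higher (10.2%) and 3 lower (6.12%), 2 of the latter being Zfp36l1 and Zfp36l2. The shares of all genes were 10.3% and 8.58%, so the list was called at about the background rate. Without DCKO library 4 or DN3b library 4, 5 were lower. Rc3h2, the Roquin-2 gene, rose by 0.95 (adjusted p 0.000186), the decapping enzyme gene Dcp2 by 0.65 (adjusted p 0.00168) and the deadenylase subunit gene Cnot8 by 0.64 (adjusted p 0.000847). Elavl1, which encodes the stabilising AU-rich binder HuR and has 8 copies of the word in its own 3′ UTR, stood at 169.5, 238, 276 and 287 CPM in DN3b and 327, 381, 392 and 333 in DCKO (log2 fold change 0.56, SE 0.15, adjusted p 0.0228; 0.0724, 0.0727 and 0.0676 without DCKO library 2, DCKO library 3 or DN3b library 2).

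Stage and lineage genes gave a mixed position. The CD44 gene, high in progenitors, stood at 1.95, 2.58, 1.46 and 1.89 CPM in DN3b and 10.7, 8.82, 9.18 and 6.95 in DCKO (log2 fold change 2.17, SE 0.31, adjusted p 0.000565), with DN3a at 1.33 to 4.25. Cd24a, which is high throughout immature thymocytes, stood at 837, 702, 640.2 and 792 and 1776, 1602, 1699 and 1216 (log2 fold change 1.08, SE 0.14, adjusted p 0.00024), above DN3a as well (724 to 927 CPM). Neither overlapped between DCKO and any control library. Markers that rise at beta selection differed among themselves: Cd27 (71.1 to 106 and 52.1 to 82.3 CPM, adjusted p 0.0893) and the transferrin receptor gene Tfrc (354 to 638 and 525 to 861, adjusted p 0.0944) were not called. Without DCKO library 4 both were (0.0225 and 0.0478), Tfrc also without DN3b library 4 (0.0322). Cd8b1 was at 8.69, 22, 26.7 and 17.6 CPM in DN3b and 6.97, 10.5, 2.88 and 4.24 in DCKO, with overlap and above DN3a (0.308 to 0.709 CPM; log2 fold change -1.61, SE 0.41, adjusted p 0.0159; 0.0517 without DN3b library 3; log2 fold change -2.40 without DCKO libraries 1 and 2). Il2ra was not called against DN3b (adjusted p 0.141, and 0.0305 without DCKO library 4).

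Of 28 T lineage transcription factors, 4 were higher and 3 lower (6 lower without DN3b library 1). These shares of 14.3% and 10.7% stood beside 10.3% and 8.58% of all genes. Lef1, a TCF family factor, stood at 227, 261, 332 and 340.0 CPM in DN3b and 113, 152, 120.2 and 90.9 in DCKO (log2 fold change -1.28, SE 0.18, adjusted p 0.000547). Myb, needed for proliferation at this stage, stood at 879, 675, 575 and 628 and 1430.0, 1401, 1107 and 988 (log2 fold change 0.84, SE 0.15, adjusted p 0.0025). Both differed without overlap. Bcl11b, which fixes T lineage identity, rose by 0.69 (adjusted p 0.00384), Sox4 by 0.61 (adjusted p 0.00262), and Gata3 (-0.21, adjusted p 0.605) and Tcf7 (-0.41, adjusted p 0.114) were not called. Tcf7 was called lower without DN3b library 1 (-0.54, adjusted p 0.0325).

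The Notch pathway, which sustains DN3 cells before selection, was not called as a block. Of 26 members, 4 were higher and 3 lower (15.4% and 11.5%, against 10.3% and 8.58% of all genes). Notch1 was at 1419, 718, 802 and 744 CPM in DN3b and 847, 1063, 901 and 1166 in DCKO (adjusted p 0.804). Notch3 was at 360.0, 104, 84.5 and 54.5 and 184, 214, 137 and 184 (adjusted p 0.758), and Hes1 at 71.7, 31.7, 15.1 and 19.6 and 87.1, 77.4, 64.8 and 66.1 (adjusted p 0.0584). In all 3 the first DN3b value is the highest. Without that library 7 of the 26 were higher, among them Notch3 (1.15, adjusted p 0.0363) and Hes1 (1.74, adjusted p 0.0005), and Hes1 was also called with DESeq2 (0.0132), limma-voom (0.0194), no low-count filter (0.0403) and the replicate block (0.0366). Without any one of DCKO libraries 1 to 3 or DN3b libraries 2 to 4 the count was 2, and without DN3b library 4 the lower count was 5. The coactivator gene Maml2 was lower (4.69 to 7.68 and 1.98 to 3.38 CPM, log2 fold change -1.18, SE 0.21, adjusted p 0.00188).

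Adhesion genes were among the higher lists, with 6 of 22 homing receptors and integrins higher and 2 lower (27.3% and 9.09%), and 10 higher without DN3b library 1. Itga4, the alpha chain of the VLA-4 integrin, stood at 401, 399, 384 and 305 CPM in DN3b and 684, 675, 873 and 841 in DCKO (log2 fold change 1.05, SE 0.13, adjusted p 0.0002). Its partner Itgb1 stood at 218, 238, 237 and 286 and 458, 499, 448 and 344 (log2 fold change 0.84, SE 0.13, adjusted p 0.00107). Itgb2, the chain shared by leukocyte integrins such as LFA-1, was lower, at 28.6, 29.1, 34.1 and 49.6 and 13.1, 15.4, 8.73 and 6.79 (log2 fold change -1.68, SE 0.27, adjusted p 0.00117). None of the 3 overlapped. Metabolic and ribosomal lists stayed near the rate of all genes or under it: 3 of 48 respiratory chain genes were higher, 3 of 33 glycolysis genes higher and 2 lower, and 3 of 25 nutrient transporters lower. The respiratory count was 6 without DCKO library 4 or DN3b library 4, and 4 glycolysis genes were lower without DN3b library 1. Of 82 cytosolic ribosomal protein genes, edgeR called 0, with 6 at an unadjusted p under 0.05, DESeq2 called 2 and limma-voom 1, and edgeR called 4 higher and 5 lower without DCKO library 4.

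The largest rises among abundant genes were led by Cdh5, which encodes VE-cadherin. It stood at 4.17, 1.1, 0.504 and 0 CPM in DN3b and 17, 14.9, 40.8 and 58.3 in DCKO (log2 fold change 4.47, SE 0.86, adjusted p 0.00344). The DN3b libraries spread widely. The DCKO range began above them, which the ranking required, and also above DN3a (0.552 to 1.54 CPM). Scin, an actin-severing protein, stood at 29.2, 16.4, 7.38 and 3.03 and 135, 100.4, 169 and 201 (log2 fold change 3.43, SE 0.51, adjusted p 0.000727), and Cpa3, a mast cell and progenitor protease, at 21.5, 15, 3.13 and 1.89 and 66, 24.4, 90.5 and 127 (log2 fold change 2.88, SE 0.74, adjusted p 0.017; 0.0512 without DN3b library 3). In all 3, DN3b library 1 was the highest of its group, and without it the log2 fold changes were 5.86, 4.07 and 3.52.

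Mllt11 rose from 6.6, 5.82, 6.37 and 5.37 CPM in DN3b to 25.7, 32.6, 30.7 and 30 in DCKO, with 7.54 to 9.56 in DN3a (log2 fold change 2.30, SE 0.13, adjusted p 9.99e-07). Ly6a, the Sca-1 gene, stood at 16, 16.7, 8.25 and 6.22 and 88.1, 79.6, 50 and 60.7 (log2 fold change 2.56, SE 0.31, adjusted p 0.000173). Mpzl2, an adhesion molecule, stood at 49.1, 47.9, 28.9 and 48.8 and 176, 183, 207 and 189.6 (log2 fold change 2.11, SE 0.21, adjusted p 4.01e-05), with DN3a at 133 to 259.7. None of these overlapped with DN3b, which the ranking required, and Mpzl2 alone of the 3 overlapped DN3a. Rapgef4 (EPAC2), Epsti1, Pde4b, Ddc, Iigp1 and Ifi202b completed the 15 largest together with Cdkn1a, Rag1 and Usp18, at log2 fold changes of 2.12, 2.12, 1.78, 1.78, 2.03 and 1.98. Ddc was at 2.41 without DN3b library 1, and it lost its call without DCKO libraries 1 and 2 (1.33, adjusted p 0.129). Ifi202b was called at adjusted p 0.0455 and lost the call without any one of DCKO libraries 1 to 3, DN3b libraries 2 to 4 or DN3a library 4 (highest 0.13, without DCKO library 2).

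By CPM, the largest rises were Rag1, Eif4a1, Cd3g, Cd24a, Myb, Cdv3, Hnrnpab and Lgals1. Hnrnpab lost its call without any one of DCKO libraries 1 to 3 or DN3b libraries 2 and 3 (highest adjusted p 0.0673, without DN3b library 2). Eif4a1, the helicase of translation initiation, stood at 1470.4, 1782, 1769.7 and 2156 CPM in DN3b and 3210.5, 2937, 2935 and 2697 in DCKO (log2 fold change 0.71, SE 0.13, adjusted p 0.00207). Lgals1, galectin 1, stood at 342, 273, 266 and 242 and 794, 547, 734 and 966 (log2 fold change 1.44, SE 0.19, adjusted p 0.000273). Both lay above DN3a too (913 to 1135 and 142 to 213 CPM), without overlap.

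H2-Q2, a nonclassical class I gene, showed the largest fall of the named genes, from 17.3, 38.4, 53.6 and 100.2 CPM in DN3b to 0.0806, 0.139, 0.131 and 0 in DCKO (log2 fold change -9.11, SE 0.82, adjusted p 1.59e-05), and its neighbour H2-Q1 fell from 0.5 to 3.06 to 0 to 0.0319 CPM. DN3a libraries held 0.236 to 1.79 CPM of H2-Q2. These genes have near-identical copies, so their counts are uncertain. B2m, the shared light chain of class I molecules, was higher in DCKO (454 to 753 and 953 to 1239 CPM, adjusted p 0.00361; 0.0511 without DCKO libraries 1 and 2).

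Several of the other large falls were of genes that are not receptor signal reporters. Mllt6, a chromatin reader, stood at 35.7, 48.6, 51.9 and 48.1 CPM in DN3b and 8.67, 6.85, 10.4 and 11.3 in DCKO (log2 fold change -2.31, SE 0.17, adjusted p 5.1e-06). Dennd2d, a RAB exchange factor, stood at 23.4, 20.1, 14.6 and 17.8 and 3.59, 4.51, 4.86 and 3, with 50.6 to 58.7 in DN3a (log2 fold change -2.25, SE 0.18, adjusted p 7.08e-06). Ly9, a SLAM family receptor, stood at 19.9, 54.4, 60.3 and 68.5 and 11.4, 10.9, 9.7 and 5.52 (log2 fold change -2.44, SE 0.48, adjusted p 0.00425). The groups did not overlap in any of the 3, as only genes without overlap were ranked. Klhl4 (-2.91), Etv5 (-2.04) and Kcnh3 (-2.17) completed the list, with adjusted p of 0.0154, 0.011 and 0.032. Klhl4 was at -4.37 without DCKO library 3 and at -2.04 without DN3b library 1. Kcnh3 lost the call with limma-voom (0.133) and without any one DCKO library or DN3b library 1 (0.117 and a log2 fold change of -1.09 without the latter), and Klhl4 and Etv5 without DCKO libraries 1 and 2 (0.129 and 0.0814).

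By CPM the largest falls were Lcp1, Zfp36l2, Lef1, Chchd3, Atp2a3, Mogs, Nsmaf and Smo. Lcp1, the actin bundler L-plastin, stood at 359, 559, 628 and 743 CPM in DN3b and 243, 231, 234 and 181 in DCKO (log2 fold change -1.36, SE 0.23, adjusted p 0.00176). Atp2a3, a calcium pump of the endoplasmic reticulum, stood at 221, 211, 249 and 252 and 102, 99, 133 and 161 (log2 fold change -0.92, SE 0.15, adjusted p 0.00114). Mogs, the first glucosidase of N-glycan trimming, stood at 192, 176, 214 and 224 and 96.6, 80.1, 87.6 and 120.3 (log2 fold change -1.07, SE 0.14, adjusted p 0.000361). All 3 were without overlap, as only such genes were ranked.

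Of the markers of cells outside the T lineage, myeloid genes had the highest median. Of 19 genes, 9 passed the filter on low counts, 8 with a positive log2 fold change, 5 at an unadjusted p under 0.05 and 1 called (Itgam, 0.228 to 0.762 and 0.889 to 3.25 CPM), with a median of 1.35. DESeq2 called 4, and the myeloid sum was 13 to 30.6 CPM in DN3b and 23.8 to 45.5 in DCKO, against 35.5 to 47.2 in DN3a, with 4 higher without DN3b library 1. Of 13 markers of cytotoxic lymphocytes 4 passed, with Il2rb lower (-2.72, adjusted p 0.00627) and Tbx21 higher (1.54, adjusted p 0.0338, lost without any one of DCKO libraries 1 to 3 or DN3b libraries 1 to 3, highest 0.105 without DCKO library 2), and sums of 406 to 579 CPM in DN3b and 282 to 484 in DCKO. Of the markers of erythroid cells and platelets, and of thymic stroma, 0 were called by edgeR among 6 and 7 tested, with 0 and 3 at an unadjusted p under 0.05, while DESeq2 called 0 and 1 and limma-voom 0 of either. Of 14 B cell genes 6 passed, and the defining Pax5 did not, with 0 and 1 counts over the 4 DN3b and the 4 DCKO libraries. The B cell sum, 249 to 388 CPM in DN3b and 155 to 202 in DCKO, was mostly Ighm, which was lower in DCKO (adjusted p 0.00784; 0.0973 without DCKO libraries 1 and 2). For gamma-delta cells 3 of 12 markers were lower (25%) and 1 higher (8.33%), with sums of 805 to 1281 and 426 to 912 CPM. The lowest of these markers was the receptor segment Tcrg-V4 (-3.75), already given above, so this count is not separate from that result. For CD4 CD8 double-positive and mature thymocytes 4 of 11 were lower (36.4%) and 0 higher (558 to 978 and 834 to 1023 CPM). Of all genes tested, 8.58% were lower and 10.3% higher. Dendritic cell genes summed to 74.5 to 143 CPM in DN3b and 131 to 169.6 in DCKO, with Flt3 and Bst2 higher (Bst2 at adjusted p 0.0966 without DN3b library 3, the highest of 6 single libraries whose removal ended its call). The part of other cells in the results above was not tested.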

How the data were processed

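RNA from 12 libraries of sorted thymocytes (3 groups of 4: DCKO, and DN3b and DN3a of control mice) was sequenced after ribosomal RNA removal with a stranded total RNA kit, per the labels' protocols. Trim Galore, TopHat2 2.0.12, HTSeq, DESeq2 1.6.3 and the build GRCm38 are named in the submitters' processing notes, while no source used here gives the strand setting or the annotation release. The deposited counts hold 43629 Ensembl genes, 42548 of which matched a symbol in GENCODE M21. The deposited signal values are the authors' counts divided by a size factor per library and were used only to check the columns. The authors' deposited DESeq2 table gives log2 fold changes, a Wald score and p-values, used only to count shared calls.

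All 12 libraries were fitted together with edgeR 4.0.16 (R 4.3.3), with TMM scaling, filterByExpr at a count minimum of 10, quasi-likelihood tests of DCKO against DN3b and Benjamini-Hochberg adjustment over the 13944 genes kept, with a threshold of 0.05. Every adjusted p in the text is edgeR's unless another tool is named. Totals ran from 28479157 to 45975678 counts. Alternatives were upper quartile and RLE scaling, DESeq2 1.42.0, limma-voom 3.58.1, other filters, the 8 libraries alone with and without a replicate block, removal of abundant features, and leaving out libraries. The procedure was tested on simulated data.

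The genes compared, the gene lists and the rule for named genes were chosen with earlier results of these data known. The rule names the targeted family, 4 markers, the 15 largest rises and falls among abundant called genes without overlap, the 8 largest by CPM, up to 6 genes a list by adjusted p, and preset genes of thymocyte stage and cell cycle. Isg15, Elavl1, Gm4737, Plaur, Elovl3, Chrna10, Lrp12, S100a8 and S100a9, the receptor segments other than Trbv1 and Tcrg-V4, and most genes given as not called were chosen after their values were seen. Results of a few other genes are not reported here. The deviations of same-numbered DN3a and DN3b libraries from their group means correlated at 0.443, 0.564, 0.354 and 0.521, so by these values, not by a statement of the labels, the numbers paired the control groups. Counts between DN3a and DN3b come from the fit of 12 libraries without the pairing, and were repeated with the number as a term, a choice made after seeing the data. P-values measure the spread between these libraries. Words and motifs were counted in annotated 3′ UTRs (GENCODE M21) and RefSeq promoters (GRCm38.p6).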

Additional observations from a re-analysis of the deposited data

Results flagged for a closer look

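Of the 342 groups of 4 libraries checked for the named genes, 26 had a library whose distance from the nearest of the others was a larger part of the group's range than Dixon's critical value for 4 samples at 95%. Chance gives such a library in about 1 of 20 groups. Each value below is the level of that library, set against the range of the other 3. DCKO library 1 stood apart on the high side in Cd6 (2.94 against 1.59 to 1.82 CPM), ENSMUSG00000045999 (110570.0 against 67.8 to 15698 CPM) and Eif2ak2 (72 against 65.9 to 66.8 CPM). DCKO library 1 also stood apart on the low side in Tcf7 (639.7 against 956 to 997 CPM). DCKO library 2 stood apart on the high side in Gm42418 (12645 against 22.1 to 74 CPM) and Lars2 (6309.5 against 13.5 to 37.5 CPM). DCKO library 2 also stood apart on the low side in Btg3 (31.6 against 37.2 to 38.1 CPM). DCKO library 3 stood apart on the high side in Nr4a3 (0.549 against 0.159 to 0.202 CPM) and Tcrg-V4 (5.28 against 2.9 to 3.28 CPM). DCKO library 3 also stood apart on the low side in Hist2h2be (20.6 against 25 to 25.5 CPM). DCKO library 4 stood apart on the high side in Lck (1067 against 868 to 897 CPM) and Phlda3 (2.49 against 1.65 to 1.78 CPM). DN3b library 1 stood apart on the high side in Bcl11b (469 against 346 to 351 CPM), Bst2 (107 against 45 to 53.5 CPM), Kcnh3 (17.3 against 1.92 to 3.88 CPM) and Klhl4 (5.86 against 1.17 to 1.52 CPM). DN3b library 1 also stood apart on the high side in Lat (591 against 352 to 382 CPM), Notch1 (1419 against 718 to 802 CPM), Notch3 (360.0 against 54.5 to 104 CPM) and Ptcra (129 against 37.8 to 41.5 CPM). DN3b library 1 also stood apart on the high side in Rag1 (1629 against 748 to 846 CPM). DN3b library 1 also stood apart on the low side in Dusp1 (2.98 against 3.64 to 3.73 CPM). DN3b library 2 stood apart on the low side in Smo (261 against 295 to 301 CPM). DN3b library 3 stood apart on the low side in Mpzl2 (28.9 against 47.9 to 49.1 CPM). DN3b library 4 stood apart on the high side in Cd2 (21.7 against 3.74 to 5.06 CPM) and Trbc2 (1126 against 1043 to 1050.1 CPM).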

How the results depend on the processing

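The count of 2635 genes ran from 1601 to 3249 when 1 library was left out, with 783 to 1691 higher, 773 to 1558 lower and 620 to 1030 changed by at least 2-fold. Leaving out DCKO libraries 1 and 2 together gave 950 genes, 528 higher and 422 lower, and 441 of at least 2-fold. The replicate numbers did not pair the groups, since the deviations of same-numbered libraries correlated at -0.05, -0.06, 0.07 and -0.26, and fitting the 8 libraries with a replicate block left 1062 genes (589 higher, 473 lower, 507 of at least 2-fold). The cause was not tested. The genes called both in the main analysis and in an alternative had the same direction in each of the 22 alternatives. The remaining scalings, tools and filters gave 2169 to 3348 genes. Of the 124 named genes that were called, 83 kept the call in all 22 alternatives and 4 in the 21 that tested them, and 20 of the other 37 lost it only with the block or without DCKO libraries 1 and 2. Lars2 (log2 fold change 6.27, adjusted p 0.0333) fell to 0.15 without DCKO library 2 and turned to -0.36 without DCKO libraries 1 and 2, since library 2 holds nearly all its counts. The difference of the summed Trbv segments, -268.3 CPM, ran from -304.1 to -238.4 over the left-out libraries.

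Transcripts under about 1 CPM, such as Egr1 in DCKO, rest on few counts. The share of DN3a-like and DN3b-like cells among DCKO cells was not measured here, strand use in counting is not given, and receptor segments and class I genes share reads with near-identical copies.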

Other observations

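Over all genes tested, 1 gene separated the DCKO libraries from all 8 control libraries by more than 8 times upwards (Gm4737), and 1 downwards (the receptor segment Tcrg-V4). Gm4737 (ENSMUSG00000048087, chr16:46152985-46155077 on the minus strand, GRCm38), annotated as protein-coding, had 589, 739, 837 and 657 counts in DCKO libraries 1 to 4 and 16 counts in all 8 controls together. That is 23.7, 20.6, 21.9 and 21 CPM in DCKO and 0 to 0.26 in DN3b. Its level was nearly even across the 4 DCKO libraries.

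Plaur, the urokinase receptor gene, stood at 4.19, 3.62, 5.2 and 2.46 CPM in DCKO and 0.214, 0.147, 0.0796 and 0.0651 in DN3b (log2 fold change 4.86, SE 0.65, adjusted p 0.000331). Elovl3, a fatty acid elongase gene, was at 1.94, 3.03, 0.994 and 0.542 and 0.119, 0, 0.0265 and 0.0325 (adjusted p 0.00153), and Chrna10 at 0.927, 1.17, 0.994 and 1.82 and 0.119, 0.0246, 0 and 0 (adjusted p 0.000502). All 3 were near 0 in DN3b. Lrp12 had a small spread, with 28, 22.5, 21.3 and 23.8 CPM in DN3b, 65.6, 66.4, 73.8 and 61.2 in DCKO and 40.6 to 44 in DN3a (log2 fold change 1.48, SE 0.10, adjusted p 4.03e-06).

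The neutrophil genes S100a8 and S100a9 were counted in part of the DCKO libraries. S100a8 had 86, 0, 0 and 35 counts in DCKO libraries 1 to 4 and S100a9 had 121, 0, 2 and 92, against 2 counts of each in all 8 controls.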
